A study of Homo sapiens with 3 samples.

Results

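The genes examined were 10 genes through which cells receive and dispose of retinoic acid. The counts list 58051 genes, with or without reads, and 19629 protein-coding genes among them. The 10 genes were chosen by name and role. They are the retinoic acid receptor genes RARA, RARB and RARG and the retinoid X receptor genes RXRA, RXRB and RXRG. With them are the binding protein genes CRABP1 and CRABP2, and the enzyme genes CYP26A1 and DHRS3. All 10 symbols matched 1 Ensembl identifier each. The samples were 3 replicates of H9, an established line of human embryonic stem cells (hESC), of wild-type genotype and without treatment, grown in Essential 8 Flex medium on plates coated with Vitronectin-XF. Their total RNA was depleted of ribosomal RNA and sequenced as 1 library per replicate, with between 8655155 and 12024802 reads counted on genes. There was 1 condition and no differentiated or retinoic acid-treated sample, so levels could be described, and their spread between replicates tested, but no response to retinoic acid could be measured. Nothing in the labels says whether the replicates came from separate cultures, so that their spread, and each p value resting on it, may be technical.

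Retinoic acid is made within cells from retinol, the circulating form of vitamin A, in a reversible step to retinal and an irreversible step to the acid. It enters the nucleus, where a RAR paired with a RXR sits on direct repeats of a short sequence near target genes. Without ligand the pair holds corepressors, and with ligand it releases them and takes up coactivators. Pluripotent cells exposed to retinoic acid leave the pluripotent state, and the acid patterns the hindbrain, the trunk and the limbs of the embryo. RARB, CYP26A1 and DHRS3 are well known as genes that retinoic acid itself turns on, and the products of CYP26A1 and DHRS3 limit its amount.

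The levels of the 10 genes fell into 3 tiers. CRABP1 and CRABP2 were far above the rest, at 692 ± 50.2 and 178 ± 11.9 transcripts per 1000000 (TPM; SD, n = 3). CYP26A1, RARG, RXRB, RXRA, RARA and DHRS3 lay between 46.3 and 14.1 TPM. RARB and RXRG were near the limit of detection, at 0.312 and 0.215 TPM. TPM is the number of reads per base of annotated exon, scaled to the same sum in each library, and was computed here from the deposited counts. A mean of at least 1 TPM was reached by 8 of the 10 genes, against 67.4% of all protein-coding genes. The median of all protein-coding genes was 7.10 TPM, which 8 of the 10 genes exceeded. Under the classes that the study defines, as applied to these values, CRABP1, CRABP2, CYP26A1 and RARG were in the high class, which holds 28.8% of protein-coding genes and began at 26.96 TPM. RXRB, RXRA, RARA and DHRS3 were in the medium class, and RARB and RXRG were in the low class. RARG, at 28.1 TPM, lay just inside the high class and RXRB, at 25.3 TPM, just outside it.

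**Figure D1:**
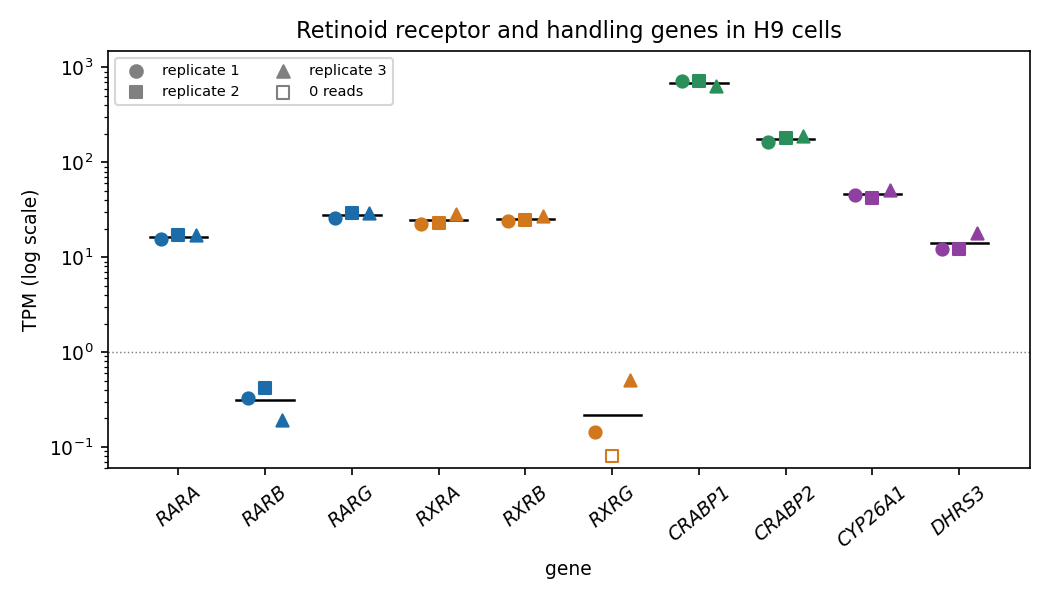
TPM of each gene (log scale) in the 3 libraries of H9 cells, with the mean as a black bar and the symbol giving the replicate. CRABP1 and CRABP2 lie at 165 TPM or more in every library, RARB and RXRG lie below the dotted line at 1 TPM in every library, and the open square marks the library of RXRG with 0 reads, drawn at the foot of the axis.

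**Figure D2:**
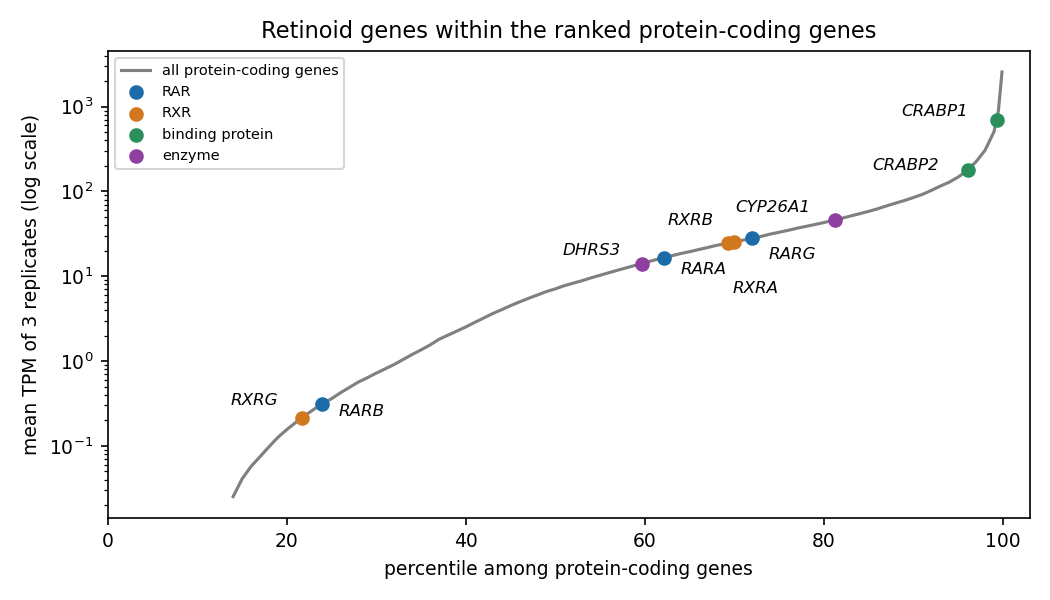
Mean TPM (log scale) of the 10 genes against their percentile among 19629 protein-coding genes, whose ranked levels form the grey line. CRABP1 stands at percentile 99.3 and RXRG at percentile 21.7, and 5 of the 6 genes of the middle tier lie between percentiles 59.7 and 72.0.

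The sequences shown here are the direct repeats near the starts of RARB and CYP26A1. Both genes carry the textbook binding element of the receptor pair and yet stood apart in level as whole genes. The element was searched as a pair of half-sites, each the consensus AGGTCA or else the variant AGTTCA or the variant GGGTCA or the variant GGTTCA, in the same direction with a spacer of 5 bases, on both strands. The stretches are from RefSeq promoter windows on GRCh38.p14, which run from 250 bases before to 50 bases after a start, and are written 5′ to 3′ on the strand of the gene, with the half-sites in capitals.
RARB, chr3:25428170-25428266, plus strand: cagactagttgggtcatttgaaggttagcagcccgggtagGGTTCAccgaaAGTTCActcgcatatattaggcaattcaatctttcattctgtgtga
CYP26A1, chr10:93073763-93073859, plus strand: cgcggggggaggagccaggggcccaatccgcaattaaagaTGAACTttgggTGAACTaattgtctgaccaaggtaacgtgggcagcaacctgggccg
In RARB the repeat lies 53 to 37 bases before the start and reads along the gene, and in CYP26A1 it lies 90 to 74 bases before the start and reads on the other strand. Of 35116 RefSeq windows, 0.0883% hold such a repeat. The 10 genes had 20 windows in all, and these 2 were the only ones among them with the repeat. RARB had 4 windows and CYP26A1 had 2, with the repeat in 1 window of each gene. Counts are per gene, so reads from the start with the repeat were not separated from those of other starts. No window of the 10 genes held a repeat with a spacer of 1 or 2 bases, which 0.131% and 0.0399% of all windows hold.

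Within 5 kb on either side of the canonical start in GENCODE release 44, CYP26A1 had 3 repeats with a spacer of 5 and RARB had 1. In 20046 protein-coding genes, 2.24% had at least 1, 0.0698% at least 2 and 0.02% at least 3. The other 2 repeats of CYP26A1 lie upstream and are written 5′ to 3′ in the direction of the repeat.
CYP26A1, chr10:93071917-93071933, plus strand: GGGTCAcaggcGGGTCA
CYP26A1, chr10:93070522-93070538, minus strand: GGTTCActaagGGGTCA
Their centres are at -1968 and -3363 bases from the start. CRABP2 had a repeat with a spacer of 1, centred at -451 bases from its start, and 4.17% of genes had such a repeat in this window. CRABP1, CRABP2 and CYP26A1 each had 1 repeat with a spacer of 2, which 36.8% of genes had. RARA, RARG, RXRA, RXRB, RXRG and DHRS3 had none of these letters in the window. A match of letters is not a bound site, and no binding was measured in these libraries.

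**Figure D3:**
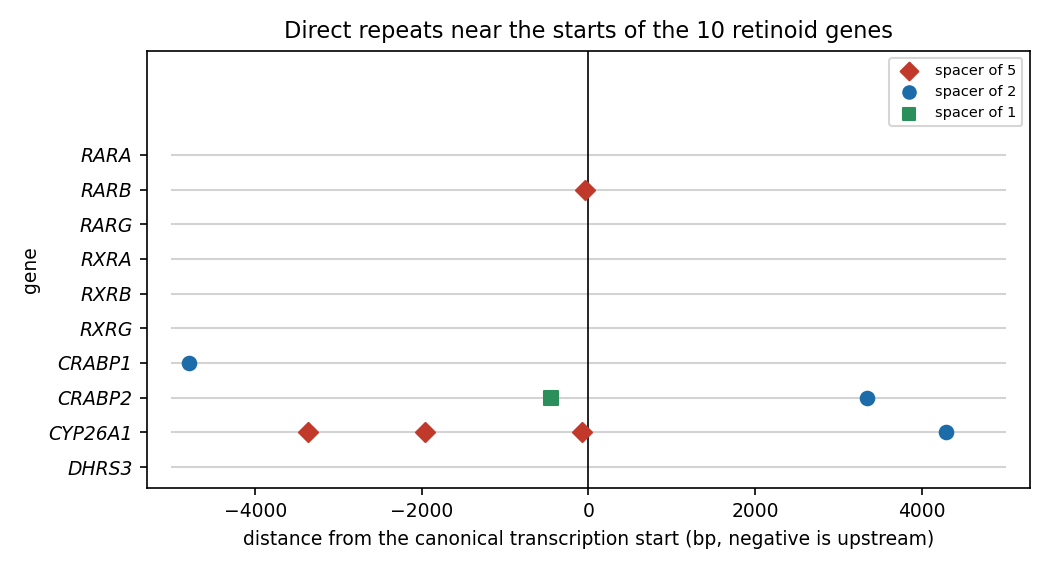
Direct repeats within 5 kb of the canonical start of each of the 10 genes, placed by the distance of their centre from the start in bp, with the symbol giving the spacer in bases. CYP26A1 has 3 repeats with a spacer of 5, all upstream, RARB has 1 at its start, and 6 genes have no repeat of any spacer searched.

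The RAR genes encode the receptors that bind all-trans retinoic acid, and RARG and RARA carried nearly all of their expression. RARG (ENSG00000172819, chromosome 12, 53210567 to 53232980, minus strand) had 349, 452 and 330 reads in replicates 1, 2 and 3, or 26.1, 29.1 and 29.0 TPM. RARA (ENSG00000131759, chromosome 17, 40309180 to 40357643, plus strand) had 191, 244 and 180 reads, or 15.5, 17 and 17.1 TPM. RARG was above RARA in every library, and their ranges did not overlap. The ratio of RARG to RARA in TPM was 1.69, 1.71 and 1.70, a mean of 1.70 ± 0.0122 (SD, n = 3), and varied less between libraries than either level. RARG held 62.5 ± 0.161% of the TPM of the RAR genes, and RARA 36.8 ± 0.228% (SD, n = 3). From counting error alone, the 95% Poisson interval of the mean was 26.5 to 29.8 TPM for RARG. For RARA it was 15.2 to 17.9 TPM. These intervals are wide beside the SDs of the ratio and of the shares. The small SDs therefore do not give the precision of the ratio or the shares, and a tightly held ratio cannot be read from them. In counts per 1000000 (CPM), which are not divided by length, RARG had 36.4 ± 2.48 and RARA 19.8 ± 1.27 (SD, n = 3). RARA-AS1, a long noncoding RNA gene on the opposite strand, covers 11.7% of the exon length of RARA and had 22 reads over the 3 libraries, against 615 reads for RARA. A gene model of unverified status on the same strand as RARA-AS1, ENSG00000278918, covers 6.14% of the exons of RARA and had 134 reads, or 53.8 reads per kb against 129.7 for RARA.

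RARB (ENSG00000077092, chromosome 3, 24687887 to 25597932, plus strand), the RAR gene that responds to the acid through the repeat at its start, had 8, 12 and 4 reads, or 0.325, 0.420 and 0.191 TPM. It was low in every library, above the limit that a count of 0 would allow, which is 3 reads. The sum of 24 reads has an exact 95% Poisson interval of 15.4 to 35.7 reads, which covers counting error only. RARB held 0.697 ± 0.254% of the TPM of the RAR genes (SD, n = 3). The gene spans 910 kb, and its 23 annotated transcripts together cover 9445 bp of exons, of which the canonical transcript has 3132 bp. With the length of the canonical transcript, RARB had 0.567 TPM, still below 1 TPM. Against RARB, the level in TPM of CYP26A1, which has the same kind of element at its start, was higher in every library, by 140-, 99.0- and 271-fold. These folds rest on the few reads of RARB and on its exon length, and they compare whole genes, not the starts with the repeat. With canonical transcripts as length, CYP26A1 had 39.1 TPM against 0.567 TPM for RARB, a smaller gap than each of these folds.

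The RXR genes encode the partners of the RARs and of several other nuclear receptors, and 2 of the 3 were expressed at about the same level. RXRA (ENSG00000186350, chromosome 9, 134317098 to 134440585, plus strand) had 708, 830 and 762 reads, or 22.5, 22.7 and 28.4 TPM. RXRB (ENSG00000204231, chromosome 6, 33193588 to 33200665, minus strand) had 246, 292 and 233 reads, or 24.2, 24.8 and 26.9 TPM. RXRB was above RXRA in replicates 1 and 2 and below it in replicate 3, and their ranges overlapped, so that their means of 25.3 and 24.6 TPM could not be told apart. Their order rests on the length used, since the annotated exons of RXRA cover 12077 bp and its canonical transcript 5537 bp. With canonical transcripts as length, RXRA had 32.3 TPM and RXRB 20.6 TPM, and RXRA took 60.7% of the TPM of the RXR genes in place of 48.9 ± 1.71% (SD, n = 3). Before division by length, RXRA had 75.1 ± 11.2 CPM and RXRB 25 ± 1.73 CPM (SD, n = 3). Of the exons of RXRB, 9.26% lie over exons of SLC39A7, a zinc transporter gene on the opposite strand with 1156 reads per kb over the 3 libraries against 198 for RXRB. As the counting's use of strand is not given in the sources used here, reads from that overlap cannot be assigned to either gene. The same holds for the overlaps at RARA.

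RXRG (ENSG00000143171, chromosome 1, 165400922 to 165445355, minus strand), known mostly from muscle, brain and retina, had 1, 0 and 3 reads, or 0.143, 0 and 0.502 TPM. The 0 of replicate 2 allows up to 0.368 TPM. The sum of 4 reads has an exact 95% Poisson interval of 1.09 to 10.2 reads, and no library had more than the 3 reads that a count of 0 allows. RXRG and RARB were in opposite order in replicate 3 and could not be ranked. Summed by family, the RXR genes had 46.9, 47.5 and 55.9 TPM and the RAR genes 41.9, 46.6 and 46.3 TPM. The ratio of the RXR to the RAR sum was 1.12, 1.02 and 1.21, a mean of 1.12 ± 0.0936 (SD, n = 3), so that both families were present in similar amounts. Fewer cells that express a gene and less of its RNA per cell cannot be told apart in RNA from bulk cultures, which holds for each level given here.

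CRABP1 and CRABP2 encode small cytoplasmic proteins that bind retinoic acid. CRABP2 is known to pass the acid to RARs in the nucleus, and CRABP1 has been tied to its storage and breakdown in the cytoplasm. CRABP1 (ENSG00000166426, chromosome 15, 78340353 to 78348225, plus strand) had 1816, 2074 and 1351 reads, or 727, 715 and 635 TPM. It ranked 138 among 19629 protein-coding genes. CRABP2 (ENSG00000143320, chromosome 1, 156699606 to 156705816, minus strand) had 464, 590 and 452 reads, or 165, 180 and 188 TPM, and ranked 772. Every library had more CRABP1 than CRABP2, with ratios of 4.42, 3.97 and 3.37 in TPM and a mean of 3.92 ± 0.523 (SD, n = 3). CRABP1 was lowest and CRABP2 highest in replicate 3, where their ratio was smallest. A gene model of unverified status on the opposite strand, ENSG00000279694, covers 45.9% of the exons of CRABP1 and had 1221 reads over the 3 libraries. It had 479 reads per kb, against 5465 for CRABP1. Since it is not known how reads in this overlap were counted, they cannot be assigned to either gene. The level of CRABP1 and its ratio to CRABP2 carry this limit.

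FABP5, which is also known to carry retinoic acid, but to the receptor PPARD in place of a RAR, had 259 ± 19.3 TPM (SD, n = 3) and lay between CRABP1 and CRABP2. All 3 genes for delivery of retinoic acid were thus in the high class. Among 16 genes for intracellular lipid-binding proteins, a list chosen after values had been seen, CRABP1, FABP5 and CRABP2 were the highest. No read was counted on FABP1, FABP4 and FABP12. The median of the list was 2.59 TPM.

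CYP26A1 encodes a cytochrome P450 that hydroxylates retinoic acid and so inactivates it. The gene (ENSG00000095596, chromosome 10, 93073475 to 93077885, plus strand) had 351, 373 and 340 reads, or 45.5, 41.6 and 51.7 TPM. It was the highest of the 10 after both CRABP genes, and its range did not overlap that of any other. Its paralogs were close to the limit of detection, CYP26B1 with 2, 3 and 3 reads and CYP26C1 with 8, 4 and 7 reads, at 0.214 ± 0.0608 and 0.575 ± 0.236 TPM (SD, n = 3). A noncoding gene of GENCODE release 44 on the same strand, ENSG00000285846, covers 25.3% of the exons of CYP26A1 and is not listed in the counts. Any reads of that gene in the overlap cannot be told from those of CYP26A1. The level of CYP26A1 and its ratios to other genes carry this limit.

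DHRS3 encodes a reductase that turns retinal back into retinol, away from the acid. DHRS3 (ENSG00000162496, chromosome 1, 12567910 to 12618210, minus strand) had 112, 131 and 139 reads, or 12.2, 12.3 and 17.8 TPM. Replicates 1 and 2 lay close together and replicate 3 above them, although replicate 3 had the fewest reads in all. CYP26A1 was above DHRS3 in every library, by 3.72-, 3.38- and 2.90-fold in TPM. DHRS3 and RARA, at 14.1 and 16.5 TPM, could not be ranked, since their ranges overlapped and replicate 3 had them in the opposite order.

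In order of mean TPM, the 10 genes were CRABP1, CRABP2, CYP26A1, RARG, RXRB, RXRA, RARA, DHRS3, RARB and RXRG. Ranges did not overlap between CRABP1 and CRABP2, CRABP2 and CYP26A1, CYP26A1 and RARG, RXRA and RARA, or DHRS3 and RARB. They overlapped between RARG and RXRB, RXRB and RXRA, RARA and DHRS3, and RARB and RXRG. RARG was nonetheless above RXRB in each of the 3 libraries. The gap of 45.3-fold between DHRS3 and RARB was the widest between neighbours. Its size depends on the length used, since with canonical transcripts DHRS3 had 13.6 TPM and RARB 0.567 TPM.

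The other genes of the pathway are given next, beginning with the supply of retinol. Their lists were chosen by role, with earlier results of these data known. Of 12 genes for uptake, transport and storage, 7 had at least 1 TPM, or 58.3%, against 67.4% of all protein-coding genes. Their median was 1.78 TPM. LRAT, which esterifies retinol for storage, was highest at 66.3 ± 2.92 TPM, and STRA6, the membrane receptor that takes up retinol, had 12.3 ± 1.19 TPM (SD, n = 3). No read was counted on TTR, a plasma carrier made in liver. Of 18 genes listed for making or converting retinol and retinal, 8 had at least 1 TPM, or 44.4%, with a median of 0.657 TPM. ADH5 led them at 150 ± 9.77 TPM, an enzyme better known for formaldehyde, and RDH11, which reduces retinal, had 100 ± 8.73 TPM (SD, n = 3). RDH10, the main oxidase of retinol in the embryo, had 12.5 ± 0.660 TPM (SD, n = 3) and its mean lay within the range of DHRS3, which works in the opposite direction. ADH1C and ADH7 had no reads.

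Of the 4 genes for the step from retinal to the acid, ALDH1A3 was in the medium class and the other 3 in the low class. ALDH1A3 had 135, 174 and 90 reads and 9.37 ± 1.62 TPM (SD, n = 3). ALDH1A1 had 9, 7 and 7 reads and 1.05 ± 0.209 TPM (SD, n = 3). ALDH1A2, the main source of retinoic acid in the early embryo, had 1, 0 and 1 reads. CYP26A1, the enzyme of breakdown, was above ALDH1A3, the highest gene of synthesis, in every library.

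The coregulators of the receptors had a median above each of the receptor genes. Of 18 genes, 17 had at least 1 TPM, or 94.4%, against 67.4% of all protein-coding genes. In the high class, which holds 28.8% of protein-coding genes, were 13 of them, and the median was 57.9 TPM. The highest was CARM1, an arginine methyltransferase that acts with coactivators, at 175 ± 1.77 TPM (SD, n = 3). The corepressor NCOR1 had 60.4 ± 2.06 TPM, and the coactivators NCOA1, NCOA2 and NCOA3 had 24.4 ± 0.731, 42 ± 0.865 and 32.0 ± 1.06 TPM (SD, n = 3). PRAME, a repressor of RAR signaling known from tumors, was lowest, with 1, 5 and 4 reads. Of 13 nuclear receptors that pair with RXR, 9 had at least 1 TPM, or 69.2%, near the share of all protein-coding genes. None was in the high class and the median was 3.54 TPM. PPARD was highest at 24.9 ± 1.05 TPM (SD, n = 3), and NR1H4 had no reads.

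Of 27 genes known to rise with retinoic acid, 9 had at least 1 TPM, which is 33.3% of them, against 67.4% of all protein-coding genes. This share differed widely between lists, from 30.4% of cytochrome P450 genes to 100% of pluripotency markers. It was also 33.3% of amnion and trophectoderm markers, so a low share is not particular to genes that rise with retinoic acid. The list holds RARB, CYP26A1, CRABP2 and DHRS3, and its median of 0.312 TPM was the level of RARB. CRABP2 and CYP26A1 were its highest genes. HOXA2, HOXA3, HOXB4, HOXD4, CDX1 and STRA8 had no reads in any library, which allows up to 3 reads in each. HOXB1, with 2, 1 and 1 reads, and HOXB2, with 7, 4 and 2 reads, were near the limit of detection. The gene list is textbook knowledge of treated cells, and these cells were not treated.

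**Figure D4:**
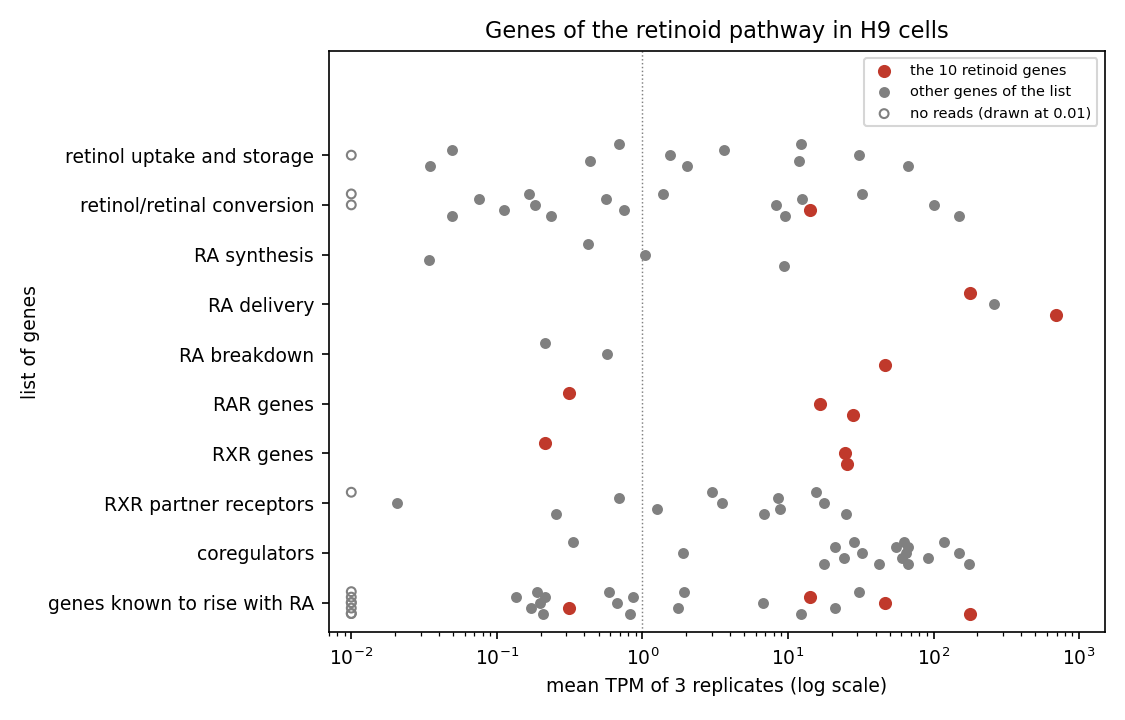
Mean TPM of 3 replicates (log scale) for the genes of each list of the retinoid (RA, retinoic acid) pathway, a point per gene, with the 10 genes in red and genes without reads as open circles drawn at 0.01. The 3 genes of delivery lie between 178 and 692 TPM, the 4 genes of synthesis lie below 10 TPM, and the genes known to rise with RA spread from 0 reads to 178 TPM.

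Among 48 nuclear receptor genes, a list chosen after values had been seen, 27 had at least 1 TPM. That share was 56.25%, against 67.4% of all protein-coding genes, and the median was 3.11 TPM. RARG ranked 6, RXRB 9, RXRA 11 and RARA 15, while RARB ranked 34 and RXRG 37. NR6A1, the germ cell nuclear factor, was highest at 255 ± 12 TPM (SD, n = 3), which is above the 10 genes except for CRABP1. The levels of NR3C1, RORB and PPARD lay between those of RARG and RXRA.

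The label of the cells was checked against markers. All 10 pluripotency markers were in the high class, with means from 259 to 2576 TPM, and CRABP1 lay within that range. Markers of differentiated cells were all in the medium, low or nonexpressed class. Their medians were 1.97 TPM for 7 neural, 1.38 TPM for 6 mesoderm, 1.57 TPM for 6 endoderm and 0.231 TPM for 6 amnion and trophectoderm markers. The highest of each were TUBB3 at 7.56, MIXL1 at 22.3, FOXA2 at 7.54 and KRT7 at 6.70 TPM. NEUROG2, CDX2 and ISL1 were at 0 reads. The part of cells of these kinds in the levels of the 10 genes was not tested.

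Replicates were compared for each gene by a chi-square of its counts against the totals of the libraries, which asks whether a gene varied by more than the sampling of reads gives. Of 18451 genes with at least 20 reads in all, 10.9% varied beyond counting error at an adjusted p under 0.05, by Benjamini-Hochberg over all of them. Of the 10 genes, 9 could be tested and 3 passed, namely RXRA (adjusted p = 5.7e-06), DHRS3 (adjusted p = 0.0136) and CRABP1 (adjusted p = 0.0346). RXRG had too few reads. CYP26A1 missed the threshold (adjusted p = 0.0552), as did CRABP2 (adjusted p = 0.245). RARG, RXRB, RARB and RARA had adjusted p values from 0.462 to 0.709, by the same test. Genes with more reads pass more readily, and 18.6% of genes with at least 500 reads did so, a depth that 7 of the 10 genes reach.

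Replicate 3 was the library that stood apart in all 3 genes. DHRS3 was higher there by 0.57 on the log2 scale of CPM than in the mean of the others, a value above 99.1% of 9946 genes with at least 100 reads in every library. RXRA was higher by 0.36, and CRABP1 fell by 0.15. Without replicate 3, none of the 9 genes passed the chi-square at an adjusted p under 0.05, while 1.33% of 17089 genes did. None passed at an unadjusted p under 0.05 either, against 10.9% of those genes. For 9 genes, a count of 0 lies near both shares. Without replicate 1, 4 of 8 genes tested passed, against 9.26% of 17058 genes, and without replicate 2, 3 of 8 passed, against 10.7% of 16726 genes. GC content of exons moved with this difference: across the 9946 genes the log2 ratio of replicate 3 had a Spearman's rho of 0.408 with it, a value across genes, which are not independent. Over the 8 of the 10 genes among them, rho was -0.238. RXRA has 62.0% GC, and genes of like GC had a median log2 ratio of 0.19. DHRS3 has 55.5% GC and CRABP1 has 56.3%, where the median was 0.06. With expected counts corrected for exon GC, CRABP1 alone of the 9 genes passed (adjusted p = 0.000216), against 6.88% of 18266 genes, while RXRA and DHRS3 did not (adjusted p = 0.353 and 0.0605, by the same test). The log2 ratio of DHRS3 was 0.51 above the median of genes of like GC, and that of RXRA was 0.17 above it. The cause of the shifts in replicate 3 was not tested.

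**Figure D5:**
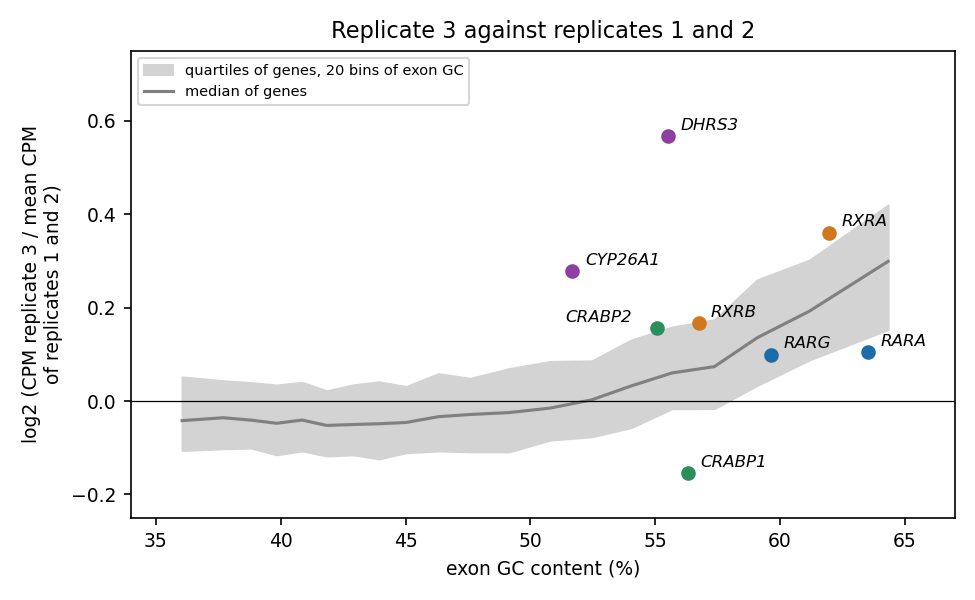
Log2 ratio of CPM in replicate 3 to the mean of replicates 1 and 2 against exon GC content (%) for the 8 genes with at least 100 reads in every library, over the median (line) and quartiles (grey) of 9946 genes in 20 bins of GC. DHRS3, CYP26A1 and RXRA lie above the quartiles of their bin and CRABP1 and RARA below them, whereas RARG, RXRB and CRABP2 lie within them.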

How the data were processed

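Total RNA of 3 H9 libraries was depleted of ribosomal RNA and sequenced by the study. Per the labels, reads were trimmed with Trim Galore (0.4.4) and aligned to GRCh38 with TopHat2 (2.1.1), and Cufflinks (2.2.1) is named for abundances, which were not used here. The authors deposited whole-number read counts per Ensembl gene, without normalization, for 58051 genes. How reads were assigned to genes (tool, annotation, strand) is not given in the sources used here.

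Identifiers were joined to GENCODE release 44 on the same build, and 56948 matched, with over 99.7% of the counts. TPM was computed from counts with merged exons as gene length, and averaged over replicates. Classes follow the methods of the study: nonexpressed below 0.01 TPM, and 3 quantiles of the rest, over protein-coding genes. All 10 genes were described, and of each list the highest and lowest genes and those that share a step with a member. The members and lists were chosen with earlier results of these data known. The chi-square (2 degrees of freedom, genes with at least 20 reads) was the test of the replicates. It was also run on simulated counts, with an outcome not reported here. With 1 condition, nothing else was tested. Some genes of the lists are not reported here by name. Totals of 10390984, 12024802 and 8655155 counts set the precision, and a count of 0 allows 3 counts. Intervals cover counting error only. Alternatives were gene length, scaling by TMM (edgeR 4.0.16) or size factors (DESeq2 1.42.0), filters, thinning to 10% (median of 11 draws), GC correction in 20 bins and leaving out each replicate. Scripts ran in Python 3.11.15 (scipy 1.17.1, pandas 2.3.3, numpy 2.4.6) and R 4.3.3.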

Additional observations from a re-analysis of the deposited data

How the results depend on the processing

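The number of genes at 1 TPM or more was 8 under every alternative but a threshold of 0.1 TPM, which gave 10. Gene length moved the comparisons between paralogs. With the longest or the canonical transcript as length, RARG held 66.8% or 66.5% of RAR TPM in place of 62.5%, RXRA 59.7% or 60.7% of RXR TPM in place of 48.9%, and CRABP2 0.208 or 0.221 times the TPM of CRABP1 in place of 0.258, since the ratio of exon union to transcript differs between genes. Both lengths placed RXRA above RARG and RXRB. Thinning to 10% gave RARG 65.5%, and the cause was not tested. The ratio of RXR to RAR sums kept within its SD throughout. Leaving out each replicate gave RARG shares from 62.5% to 62.6%, RXRA shares from 47.9% to 49.4%, RXR to RAR ratios from 1.07 to 1.16 and CRABP2 to CRABP1 ratios from 0.239 to 0.274. Without replicate 2, RXRG came above RARB. TMM, DESeq2 factors and the median over replicates moved no mean level by more than its SD. A total of protein-coding genes alone, without the mitochondrial genome, raised every mean level, 8 of them by more than their SD.

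Genes varying beyond counting error numbered 3 as reported (10.9% of all genes tested), 1 after GC correction (6.88%), and 0 to 4 with a replicate left out (1.33% to 10.7%). With at least 1 read as filter, CRABP1 was lost (adjusted p = 0.0630, chi-square), where 4.81% of 34216 genes passed. With filterByExpr, CYP26A1 was gained (adjusted p = 0.0493, chi-square), where 12.8% of 15997 genes passed. No paired analysis was possible because all 3 libraries belong to 1 condition. Depth limits RARB and RXRG, whose levels rest on 24 and 4 reads.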

Other observations

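Both enzymes were also set within their families, by lists chosen after values had been seen. Among 56 cytochrome P450 genes, 17 had at least 1 TPM, or 30.4%, against 67.4% of all protein-coding genes, and CYP26A1 ranked 2. CYP2S1, an enzyme of epithelia that has been reported to act on retinoic acid, was highest, with 1648, 1882 and 1503 reads and 237 ± 10.8 TPM (SD, n = 3). After CYP26A1 came CYP2B6, mostly known from liver, at 16.3 ± 1.82 TPM, and CYP51A1, an enzyme of cholesterol synthesis, at 15.1 ± 3.65 TPM (SD, n = 3), and these ranges lay below that of CYP26A1. No read was counted on 9 of the 56 genes. CYP2B6 and others of the family have close paralogs and pseudogenes, so their counts are uncertain.

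Among 20 genes named RDH or DHRS, 15 had at least 1 TPM, or 75%, against 67.4% of all protein-coding genes, and DHRS3 ranked 6. RDH11 was highest, followed by RDH14 at 32.4 ± 1.5 TPM, DHRS13 at 32.3 ± 1.40 TPM and DHRS7 at 29.9 ± 2.98 TPM (SD, n = 3). DHRS3 and DHRS11 could not be ranked, at 14.1 ± 3.20 and 14.3 ± 0.579 TPM (SD, n = 3). The SD of DHRS3 was above those of DHRS13, RDH14 and DHRS11, which have similar or higher levels.

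The 4 protein-coding genes with at least 3 direct repeats with a spacer of 5 within 5 kb of their start were MYL7, CYP26A1, AHSP and TRABD, named after the counts of repeats had been seen. Their mean levels were 1.08, 46.3, 3.36 and 39.3 TPM. MYL7 had 6 repeats of 4 different sequences and TRABD 3 of 2, while the 3 repeats of CYP26A1 and the 3 of AHSP all differed.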
